A study of Mus musculus with 6 samples.

Results

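*Acta1* and *Neb*, which encode major proteins of the skeletal muscle thin filament, were followed in polyadenylated RNA of young mice, 6 days after birth (P6), and of adult mice, 56 days after birth (P56). The deposited table holds 312 genes and is named as one of differentially expressed genes. Shares, ranks and medians over its genes refer to this selection and not to all expressed genes. *Acta1* and *Neb* are 2 of these 312 genes, were found there by their symbols, and were selected on their measured difference between the ages. Their difference is therefore given as a description, without a test. Each age had 3 libraries, named here by age and replicate number. The mice were wild-type C57BL/6, an inbred strain, with no allele or treatment. The study's methods give the material as inguinal fat depots (iAT), in a study that used mice of both sexes, while the labels call it macrophages of adipose tissue and describe no step that isolates them. No source used here says whether a library held 1 animal or a pool, so p-values measure only the spread between these libraries, which may be technical.

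The thin filament is the actin-based lattice of the muscle sarcomere, along which myosin pulls. *Acta1* (gene ID 11459) encodes skeletal alpha-actin, the subunit from which the thin filaments of adult skeletal muscle fibres are built. *Neb* (gene ID 17996) encodes nebulin, a giant protein that runs along the thin filament and helps to set its length. Mutations in either gene cause nemaline myopathy, a muscle disease with rod-like inclusions in the fibres. Fat cells are not known for sarcomeres, and smooth muscle around vessels uses another alpha-actin, encoded by *Acta2*.

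*Acta1* was matched in RefSeq's table of promoters by symbol and gene ID, 1 of the 2 genes. Its sequence is shown because serum response factor, which drives actin genes in muscle, is known to bind a CArG box. The 250 bases before the annotated start lie at chr8:123894776-123895025 on the minus strand of GRCm38.p6, the build of that table, and the capitals mark the CArG box.

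Acta1 promoter: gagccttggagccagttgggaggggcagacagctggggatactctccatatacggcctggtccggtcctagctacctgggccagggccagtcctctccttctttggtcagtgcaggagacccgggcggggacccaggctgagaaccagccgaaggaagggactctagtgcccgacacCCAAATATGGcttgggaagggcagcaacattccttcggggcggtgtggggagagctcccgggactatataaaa

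The CArG box was searched on both strands, as were the other motifs, and only as an exact match to CCWWWWWWGG, where W is A or T. Forms that differ from it by a base were not counted. This window held 1 exact match, which begins 73 bases before the start. Of the 32851 windows of the same length in the table, 1.47% held at least 1. It held 2 E-boxes (CANNTG), the motif of myogenic factors such as MyoD, at 238 and 221 bases before the start, and 66.2% of all windows held one. An MCAT motif (CATTCC) began 46 bases and a TATA motif (TATAAA) 7 bases before the start, and these motifs were present in 12.6% and 12.4% of all windows. The MEF2 box was not in this window, and 2.92% of all windows held it. The other sarcomere genes and actin isoforms in the deposited table were searched for the same exact form. The windows of *Myom1* and *Actg1* held it and those of *Tpm2*, *Flnc*, *Dysf* and *Acta2* did not. A window without an exact match can still hold a CArG box of a looser form. No motif overlapped the CArG box of *Acta1*. These matches describe letters in a window and not binding.

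The libraries held between 497044 and 816309 counts over the listed genes. The relative depth of the whole libraries, taken from counts divided by FPKM over 196 genes (FPKM is a count per length and per library depth) and called the recovered depth here, was between 1.09 and 1.16 at P6 and between 0.796 and 0.938 at P56. P56 replicate 3 had the least depth. Its median log2 deviation from the mean of the other P56 libraries was −0.18 over 310 genes. Measured in the same way, P56 replicate 1 deviated by 0.15 and P56 replicate 2 by 0.03. Of the 17 macrophage and 10 adipocyte markers looked up, 0 were in the table, so neither description of the material could be checked against its markers.

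Both transcripts were higher at P56 in every library, *Acta1* at a high level and *Neb* at a very low one. *Acta1* had 151, 165 and 173 TPM in P6 replicates 1 to 3, where TPM is a transcript's length-corrected share of its library's transcripts. It had 562, 551 and 542 TPM in the P56 replicates. The ages did not overlap, and the lowest P56 library was 3.13 times the highest P6 library. The mean level of *Acta1* was 163 ± 11.3 TPM at P6 (SD, n = 3) and 551 ± 9.89 TPM at P56 (SD, n = 3), a 3.38-fold higher level at P56. In these bulk samples, fewer cells of a type and less RNA per cell cannot be told apart.

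*Neb* had 0.17, 0.21 and 0.18 TPM in P6 replicates 1 to 3 and 0.76, 0.78 and 0.51 TPM in the P56 replicates. The ages did not overlap here either, although P56 replicate 3 lay well below the other P56 libraries. The mean level of *Neb* was 0.187 ± 0.0208 TPM at P6 (SD, n = 3) and 0.683 ± 0.150 TPM at P56 (SD, n = 3), a 3.66-fold higher level at P56. Both genes thus had all 3 P6 values below all 3 P56 values, which 37.5% of the 312 genes did.

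**Figure D1:**
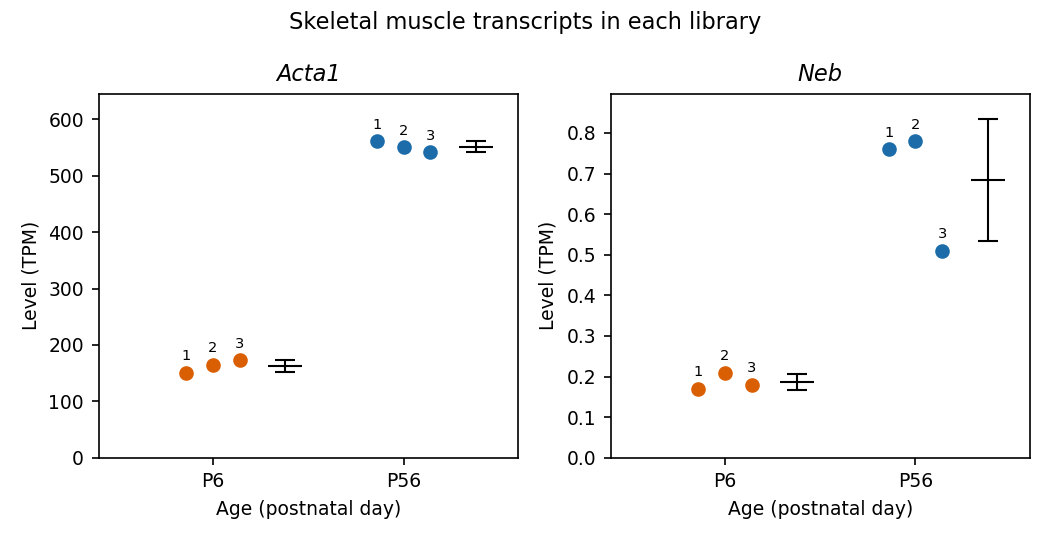
Level (TPM, linear axis from 0) of *Acta1* and *Neb* in each library at P6 and P56. Points are libraries with their replicate number, and the horizontal mark with its bar is the mean with its SD. The P56 libraries of *Acta1* lie between 542 and 562 TPM and those of *Neb* between 0.51 and 0.78 TPM, all above the P6 libraries of the same gene.

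The counts behind these levels set their precision. *Acta1* had 1764, 1885 and 2151 counts at P6 and 4946, 4678 and 4372 counts at P56. *Neb* had 33, 39 and 36 counts at P6 and 107, 107 and 66 counts at P56. Every count of the 2 genes was whole, while 23 genes of the table had a fractional count in at least 1 library, as arises where reads are divided between genes. Scaled to the recovered depth, the totals of *Acta1*, 5800 counts at P6 and 13996 at P56, were 3.11 times as high at P56 (95% exact interval 3.01 to 3.21). The totals of *Neb*, 108 and 280 counts, were 3.34 times as high (2.67 to 4.21). The 2 intervals overlap and cover counting error only.

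The spread between replicates had a different size in each gene. At the recovered depth, the coefficient of variation of *Acta1* was 8.32% at P6 and 2.44% at P56, where counting alone gives 2.27% and 1.46%. That of *Neb* was 10.5% at P6, under the 16.7% that counting alone gives, and 19.0% at P56, above the 10.4% from counting. The group with the largest coefficient of variation was therefore *Neb* at P56, where replicate 3 was the low library. As a multiple of the value from counting alone, the spread was largest for *Acta1* at P6.

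In the fit across all tested genes, the log2 fold change (P6 over P56) was −1.64 for *Acta1* (standard error 0.09) and −1.73 for *Neb* (standard error 0.21). The difference between these 2 values was 0.09 with a standard error of 0.23, smaller than its error. Both genes were among those called lower at P6, as were 33.5% of the 310 tested genes, and since the contrast chose the genes nothing is read from this count. *Neb* had the fifth and *Acta1* the seventh lowest of the 310 fold changes, and 18 genes had a log2 fold change of −1 or lower. The median over all tested genes was −0.02.

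With library sizes set equal, the median of all genes moved up by 0.36, and the fold changes were −1.27 for *Acta1* and −1.37 for *Neb*. Relative to the median of all genes, *Acta1* stood at −1.62 by the recovered depth and at −1.61 by equal sizes, and *Neb* at −1.70 and −1.71. The distance of both genes from the median of the table moved by less than their standard errors between the scalings. A change of library sizes shifts all genes by nearly the same amount. These distances are therefore nearly fixed in advance and do not test the scaling.

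**Figure D2:**
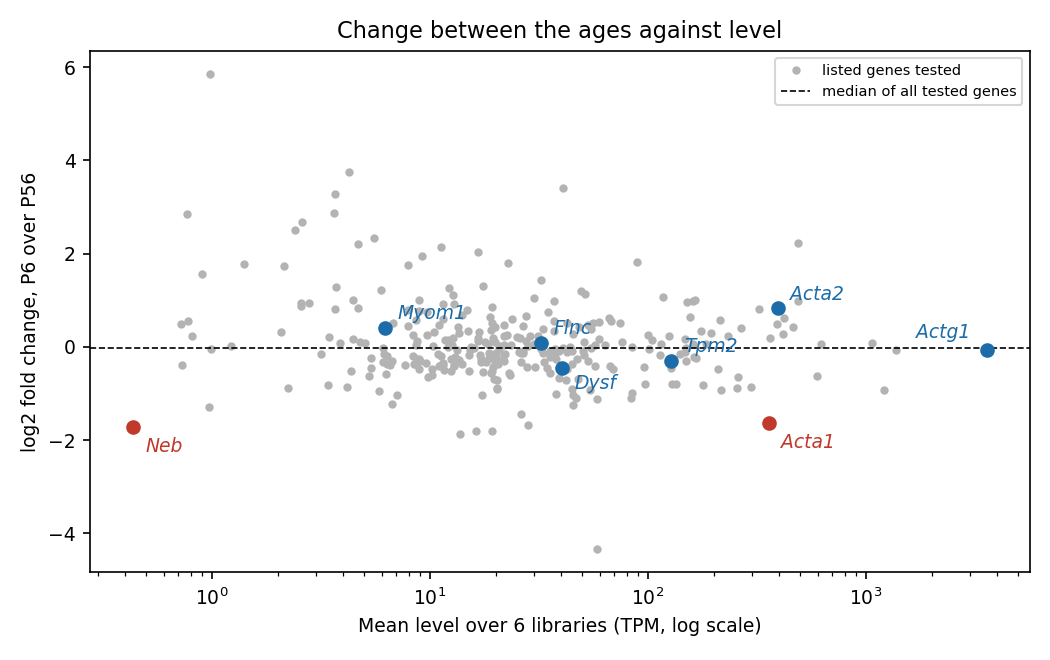
log2 fold change (P6 over P56, recovered depth) of the 310 tested genes against their mean level over the 6 libraries (TPM, log scale). *Acta1* and *Neb* (red) lie at −1.64 and −1.73 at opposite ends of the levels, while the other sarcomere genes and actin isoforms (blue) lie between −0.45 and 0.84.

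Apart from each other, the neighbours of both genes in the order of fold changes came from several families. None of these was on the sarcomere list. Below *Neb* stood *Aldh1a7*, a close relative of the retinaldehyde dehydrogenase *Aldh1a1*, at −1.80 (standard error 0.34), and *Col4a5*, a basement membrane collagen chain, at −1.81 (standard error 0.12). Between *Neb* and *Acta1* stood *Zhx3*, a zinc finger and homeobox repressor, at −1.66 (standard error 0.10). Above *Acta1* stood *Kifc3*, a kinesin motor, at −1.43 (standard error 0.12), and *Diras2*, a small GTPase, at −1.28 (standard error 0.38). Without P56 replicate 1, *Diras2* was at −0.80 and no longer called. Each neighbour of *Neb* differed from it by less than the standard error of *Neb*.

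*Acta1* ranked among the most abundant transcripts of the table at P56 and *Neb* among the least abundant at both ages. By TPM, *Acta1* was 35th, 28th and 30th of 312 genes in P6 replicates 1 to 3. It was 7th, 7th and 6th in the P56 replicates. *Neb* ranked between 310th and 312th at P6 and between 302nd and 306th at P56. *Acta1* made up between 0.623% and 0.754% of the listed TPM at P6 and between 2.09% and 2.31% at P56.

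The ratio of *Acta1* to *Neb*, which does not depend on the depth of a library, was 887, 785 and 962 in the P6 replicates and 739, 706 and 1062 in the P56 replicates, on the TPM scale. The ages overlapped fully in this ratio, with the P6 values inside the range of the P56 values. Its mean was 878 ± 89.0 at P6 (SD, n = 3) and 836 ± 197 at P56 (SD, n = 3). The mean log2 ratio at P6 exceeded that at P56 by 0.09, less than the spread between replicates (SD 0.25), and by 0.28 without P56 replicate 3. Since the TPM of *Neb* was deposited with 2 decimals, rounding alone leaves the ratio of P6 replicate 1 between 861 and 914.

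The low value of *Neb* in P56 replicate 3 fell together with other long transcripts in that library. The longest coding transcript of *Neb* in GENCODE's annotation of GRCm38 has 22489 bases, the second longest among 309 listed genes with a length, whose median is 6404 bases. That of *Acta1* has 1446 bases. The ratio of count to FPKM, which grows with the length that the authors used, was between 15.8 and 17.2 times as high for *Neb* as for *Acta1* over the 6 libraries, against 15.6 from the annotation.

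In P56 replicate 3, *Neb* deviated by −0.49 on the log2 scale from the mean of P56 replicates 1 and 2 at the recovered depth, whereas *Acta1* deviated by 0.06. The 29 other genes with the longest transcripts, of at least 13675 bases, had a median deviation of −0.31 in this library and all 29 lay below 0. The 30 genes with the shortest transcripts had a median of 0.10. Of the 310 tested genes, 14 deviated further down than *Neb*. P6 replicate 3 also had all 29 long genes below 0, with a median of −0.18, and there *Neb* deviated by −0.06. The part of transcript length in the low *Neb* value was not tested. Without P56 replicate 3, the log2 fold change was −1.87 for *Neb* and −1.62 for *Acta1*.

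**Figure D3:**
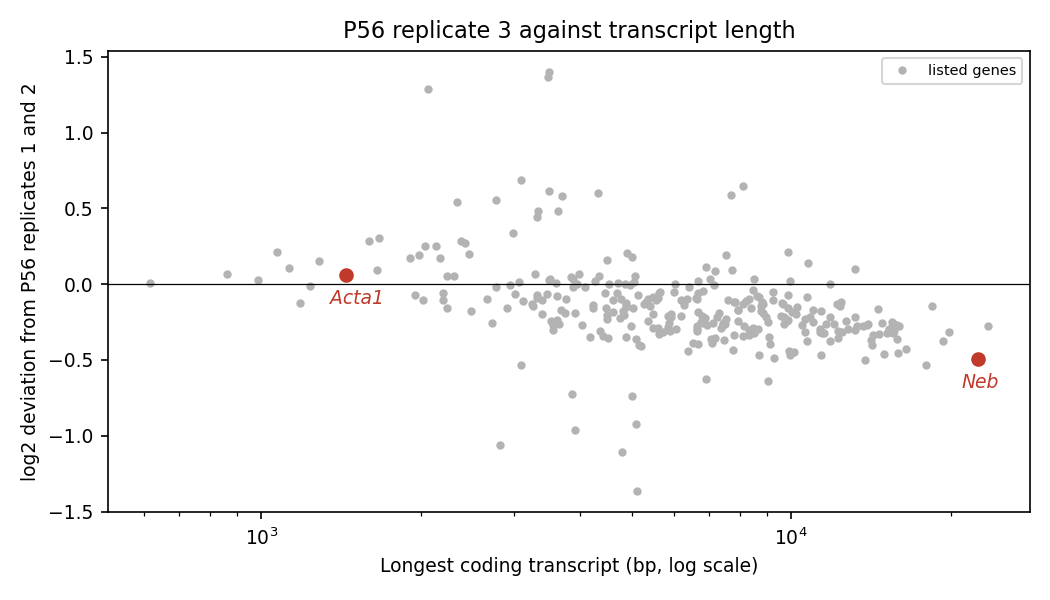
log2 deviation of P56 replicate 3 from the mean of P56 replicates 1 and 2, at the recovered depth, against the longest coding transcript (bp, log scale) of each tested gene with a length. *Neb*, near the long end, lies at −0.49, and *Acta1*, near the short end, at 0.06.

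Reads of *Acta1* could in part be shared with other actins. Of the 1397 windows of 50 bases in its longest transcript, 2.22% occurred exactly in a transcript of another gene, *Actb* and several actin pseudogenes among them, and of the 1347 windows of 100 bases 0 did. For *Neb*, 0 of 22440 windows of 50 bases occurred in another gene, while 4.36% occurred more than once within its own transcript, as the repeated modules of nebulin would give. The labels list several read lengths without saying which applied here.

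The other sarcomere genes in the table had smaller changes and mixed signs. Of a list of 64 genes of the sarcomere and the skeletal muscle fibre, 6 were in the table, so the others, myosin heavy chains and troponins among them, were not analysed here. Besides *Acta1* and *Neb* these were *Tpm2*, *Dysf*, *Flnc* and *Myom1*, of which 2 were called lower and 0 higher at P6 at the recovered depth, where 33.5% of all tested genes were called lower and 30.3% higher. With equal library sizes 0 were called lower and 2 higher. Their median log2 fold change was −0.10, against −0.02 for all tested genes. Without P56 replicate 3, 2 were called lower and 0 higher, as in DESeq2 at the recovered depth with all libraries. At an unadjusted p under 0.05 in edgeR, 1 of the 4 genes, *Myom1*, was higher.

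*Tpm2* encodes beta-tropomyosin, which winds along the actin of the thin filament in skeletal and smooth muscle and is itself a nemaline myopathy gene. It had 124, 99.8 and 117 TPM in the P6 replicates and 139, 144 and 145 TPM in the P56 replicates, so the ages did not overlap but lay close. The fitted log2 difference, P6 over P56, was −0.30 with a standard error of 0.11 (Benjamini-Hochberg adjusted p = 0.0295, quasi-likelihood test of edgeR). It was 0.076 when library sizes were set equal, where the direction turned. The call was lost without P6 replicate 2 (−0.20), P6 replicate 3 (−0.32) or P56 replicate 2 (−0.30), and under TMM or median-of-ratios scaling. Over the 15 alternatives, fitted in edgeR, DESeq2 or limma, the adjusted p lay between 0.0123 and 0.719.

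*Dysf* encodes dysferlin, a membrane repair protein of muscle fibres that other cells also make. It had 32.0, 32.7 and 32.4 TPM at P6 and 53.6, 49.4 and 40.8 TPM at P56. The P56 libraries were all higher, with replicate 3 again the lowest. *Dysf* was called lower at P6, by −0.45 on the log2 scale with a standard error of 0.09 (edgeR, adjusted p = 0.00144), also with each library left out. With equal library sizes the value was −0.093 and not called. The adjusted p of the 15 alternatives (edgeR, DESeq2, limma) lay between 7.34e-06 and 0.646.

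*Flnc*, the muscle filamin that anchors actin at the Z-disc, had 31.5, 32.0 and 31.9 TPM at P6 and 40.4, 34.9 and 22.5 TPM at P56. The P6 libraries lay inside the range of the P56 libraries. Its log2 fold change was 0.10 (standard error 0.15), −0.088 without P56 replicate 3, and 0.44 with equal library sizes, where it was called. *Myom1*, the M-band protein myomesin that crosslinks myosin filaments, had 8.82, 5.58 and 6.19 TPM at P6 and 6.39, 5.02 and 5.19 TPM at P56, with the ages overlapping. Its log2 fold change of 0.41 (standard error 0.18, adjusted p = 0.0685 by edgeR) had the sign opposite to that of *Acta1* and *Neb*, and it was called with equal library sizes (0.78), without P6 replicate 2, without P56 replicate 1 and with the replicate block.

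**Figure D4:**
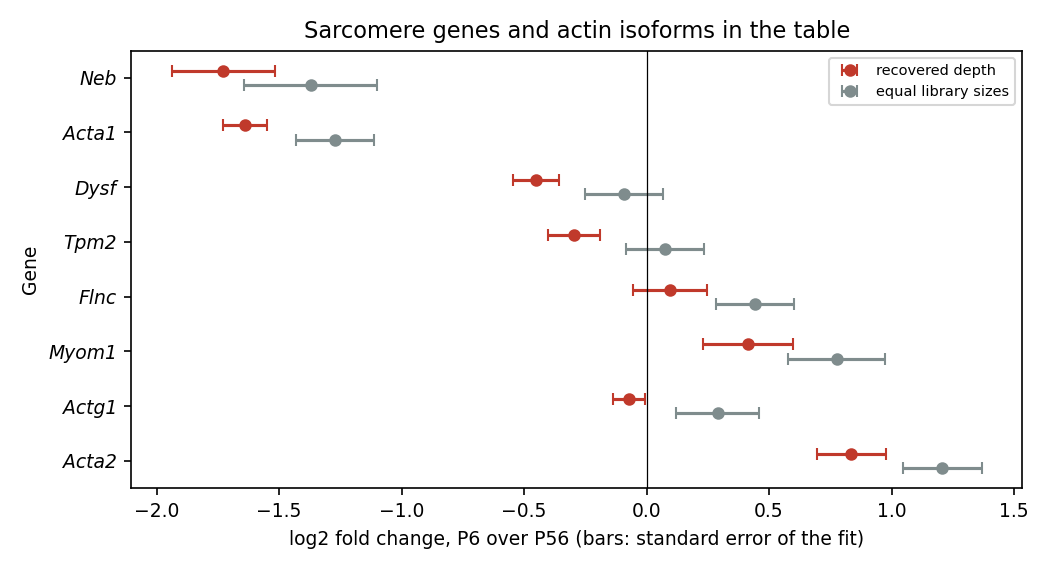
log2 fold change (P6 over P56) of the sarcomere genes and actin isoforms in the table, fitted by recovered depth (red) or by equal library sizes (grey), with the standard error of the fit. *Acta1* and *Neb* lie below −1.2 under both scalings, while *Tpm2*, *Dysf*, *Flnc* and *Myom1* lie between −0.45 and 0.78.

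Of the 6 actin genes, 3 were in the table and they went different ways. *Actg1*, the cytoplasmic gamma-actin of most cells, had between 3256 and 3423 TPM at P6 and between 3529 and 4029 TPM at P56. Its change of −0.07 had a standard error of 0.07 and was not called (adjusted p = 0.345 by edgeR). With equal library sizes the value was 0.29, and without P56 replicate 3 it was called lower, at −0.10. *Acta2*, the smooth muscle alpha-actin, had 608, 405 and 453 TPM at P6 and 310, 263 and 318 TPM at P56. Its log2 fold change of 0.84 (standard error 0.14, adjusted p = 0.000341 by edgeR, 7.21e-13 to 0.00297 over the alternatives, DESeq2 and limma included) was opposite in sign to that of *Acta1* under each scaling. By level, *Acta2* exceeded *Acta1* in each P6 library, and *Acta1* exceeded *Acta2* in each P56 library.

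Among the 11 genes of the smooth muscle list, 5 were in the table. Of these, 3, *Acta2*, *Cnn1* and *Tagln*, were called higher at P6 and 0 lower. At the same adjusted threshold, 30.3% of all tested genes were called higher and 33.5% lower. The same 3 genes of the list had an unadjusted p under 0.05 in edgeR. The call of *Tagln* (0.40) was lost without P6 replicate 1 (0.21) or P56 replicate 2 (0.33) and in limma on TPM (0.26). *Smtn*, smoothelin of the smooth muscle cytoskeleton, was not called (0.16), but was called higher with equal library sizes (0.53), TMM (0.18), median-of-ratios scaling (0.18), the replicate block (0.17) and without P56 replicate 1 (0.23). The list of 16 myogenic regulators had 1 gene in the table, *Mef2c*, a transcription factor of muscle that endothelial and immune cells also use. It was called higher at P6, with a log2 fold change of 0.56 (standard error 0.09, adjusted p = 0.00029 by edgeR, 6.31e-08 to 0.0076 over the alternatives, DESeq2 and limma included). Of the 13 genes for thin filament length and capping only *Lmod1*, a smooth muscle leiomodin, was listed. It was not called (−0.22, standard error 0.18). Of the 13 nemaline myopathy genes, 3 were in the table, *Acta1*, *Neb* and *Tpm2*. The nebulin family had *Neb* alone there.

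The genes whose profile over the 6 libraries was most like that of *Acta1* were *Zhx3*, *Col4a5*, *Kifc3*, *Lfng* and *9930111J21Rik1*. Likeness was measured as the root mean square difference between centred log2(TPM + 1) profiles, which was 0.11, 0.15, 0.17, 0.24 and 0.28 for these genes among 299 compared. *Zhx3* had a mean of 12.6 TPM at P6 and 43.7 TPM at P56. The gene *9930111J21Rik1* has close relatives. Whether they share reads with it was not checked here, so its counts are taken as uncertain. On the scale of *Neb*, the pseudocount of 1 flattens the profile, and the genes nearest to it, *Crybg3*, *Pdcd11*, *Trip11*, *Dysf* and *Usp24*, had differences between 0.05 and 0.06. On this scale *Acta1* and *Neb* differed by 0.63, which made *Neb* the 61st nearest of 311 genes to *Acta1* and *Acta1* the 270th nearest to *Neb*. Likeness was also measured on log2 counts at the recovered depth, a scale chosen after the values were seen. Leaving *Acta1* aside, the genes nearest to *Neb* there were *Col4a5* (0.10), *Zhx3* (0.10), *9930111J21Rik1* (0.16), *Kifc3* (0.19) and *Cyp26b1* (0.30). On the same scale the difference between *Acta1* and *Neb* was 0.21, and *Neb* was the 4th nearest of 311 genes to *Acta1* and *Acta1* the 5th nearest to *Neb*. Both genes were selected on the age difference, which these profiles contain, so their likeness is a description only.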

How the data were processed

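RNA of mice at P6 and P56 was sequenced in 3 libraries per age. The authors sequenced on a BGISEQ-500, aligned with HISAT and Bowtie2 and estimated expression (RSEM, per the labels); tool versions and the build were not given in the sources read. Deposited by the authors were estimated counts, TPM and FPKM for 312 selected genes, the last 2 scaled over all genes of a library. Columns with the authors' own fold changes, p-values and q-values were not used.

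Counts were rounded and compared with edgeR 4.0.16 in R 4.3.3 (glmQLFit, glmQLFTest, adjusted p under 0.05 after Benjamini-Hochberg) without covariates, in the 310 genes averaging at least 10 counts. Library sizes were set to the depth recovered from count over FPKM, for genes above 5 FPKM in every library. Standard errors are the fold change over the root of F. Simulated data were used to test the fit. The 2 genes and all lists were chosen with earlier results of these data known. Beside them, the named genes are the list members in the table, the 5 most alike profiles (mean TPM of at least 1) and the 2 neighbours on each side in the order of changes. Of 170 list genes, 14 were in the table. Alternatives were DESeq2 1.42.0, limma 3.58.1 on TPM, other library sizes and filters, a replicate block and each library left out. Lists of 8 epithelial, 6 endothelial and 8 fibroblast genes had 0 in the table, and of 10 brown and beige fat genes only *Prdm16* was listed (−0.23, standard error 0.13, not called by edgeR at the recovered depth, called lower by limma on log2(TPM + 1) at −0.31).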

Additional observations from a re-analysis of the deposited data

How the results depend on the processing

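*Acta1* and *Neb* kept their sign in every alternative run. The change of *Acta1* moved by more than its replicate SD (0.09) to −1.27 with equal library sizes, to −1.75 with limma on log2(TPM + 1), to −1.76 with log2(TPM + 0.1) and to −1.76 as the ratio of mean TPM, the last chosen after seeing the data. *Neb* moved to −1.37 with equal library sizes, and limma gave no value for it because its mean TPM is under 1. With each library left out, *Acta1* ranged from −1.70 to −1.58, *Neb* from −1.87 to −1.63, the log2 difference of the *Acta1* to *Neb* ratio from −0.02 to 0.28 and the number of called genes from 172 to 221. At the recovered depth 198 genes were called, 94 higher and 104 lower (47.5% higher), equal library sizes 148 higher and 34 lower (81.3%), and a log2 change of at least 1 left 50. With equal library sizes the sign turned for *Tpm2* (0.0758), *Actg1* (0.29), *Lmod1* (0.14), *Prdm16* (0.13) and *Usp24* (0.0256), and without P56 replicate 3 for *Flnc* (−0.0883), a value not called. The replicate block gave 213 calls, −1.64 for *Acta1* and −1.72 for *Neb*. Deviations of same-numbered libraries correlated at 0.09, 0.15 and 0.26 across 310 genes, and P56 replicate 1 correlated better with P6 replicate 2 (0.12), and the replicate numbers were taken as names. *Neb* rests on 108 counts in all at P6, which limits its precision. Equal library sizes leave out the recovered depth, which was between 1.09 and 1.16 at P6 and between 0.796 and 0.938 at P56. The cause of the other shifts was not tested.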
